A study of Mus musculus with 6 samples.

Results

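The cholesterol synthesis, uptake and SREBP2 control genes described here are 29 mouse genes taken by symbol from a fixed list, out of 55487 genes in each count table. They comprise 20 enzymes that build cholesterol or its isoprenoid precursors, and 4 genes for the transcription factor SREBP2 and the sterol sensor that governs it. A further 3 genes move sterol within the cell, and 2 esterify it. Their RNA was measured by sequencing in mouse hepatocytes, the liver's main metabolic cells. The 2 groups were AEG-1-C75S, described as homozygous mutant mice, and AEG-1-WT (WT), both bred from heterozygous parents. AEG-1 is a membrane-anchored protein encoded by *Mtdh*, and in C75S a serine takes the place of a cysteine. Mice of both groups were 6 to 8 weeks old, RNA was taken 48 h after the cells were isolated, and all 6 libraries carry the treatment label Control. Strain, sex, culture conditions and batch are not given in the sources used here. There were 3 libraries per group. The labels do not tie each library to a mouse, so n counts libraries and the p-values measure the spread between them, which may be technical. By the series title, the comparison bears on how palmitoylation of AEG-1, which needs that cysteine, affects its function.

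Cholesterol is built in the cytosol and the endoplasmic reticulum. Acetyl-CoA units are joined and reduced to mevalonate, mevalonate is turned into isoprenoid diphosphates, these are joined to squalene, squalene is closed to lanosterol, and lanosterol is trimmed to cholesterol. SREBP2, made from *Srebf2*, switches on most of these genes. It is held in the endoplasmic reticulum by the escort protein SCAP and the anchors INSIG1 and INSIG2 while sterol is plentiful, and it is cut and freed to enter the nucleus when sterol is low. In the liver this pathway supplies membranes, bile acids and lipoproteins.

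SREBP2 acts on promoters through short sterol regulatory elements, usually beside CCAAT boxes, which NF-Y binds. The 250 bases before the start site were available from RefSeq (GRCm38.p6) for 23 of the 29 genes, 4 of them with more than 1 start site. Both strands were searched for a sterol regulatory element written TCACNCCAC, for CCAAT, for the E-box CACGTG and for the GC box GGGCGG. None of these motifs contains another. The windows below are shown because they belong to an enzyme gene with a match to the element (*Hmgcs1*), to an enzyme gene whose libraries did not overlap between genotypes (*Sc5d*), and to the pair of anchors whose values had opposite signs (*Insig1* and *Insig2*). The sequences run 5′ to 3′ toward the gene, and capitals mark TCACNCCAC and CCAAT on either strand. The *Insig1* window stops where the GENCODE gene begins, and for *Insig2* the first of 3 windows is shown.
Hmgcs1 (chr13:119690101-119690350, + strand): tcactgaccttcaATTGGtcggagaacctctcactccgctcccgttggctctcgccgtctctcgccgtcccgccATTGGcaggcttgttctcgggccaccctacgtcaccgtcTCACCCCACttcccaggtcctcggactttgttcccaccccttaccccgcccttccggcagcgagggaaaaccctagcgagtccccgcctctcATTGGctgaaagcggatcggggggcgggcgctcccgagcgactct
Sc5d (chr9:42264301-42264550, - strand): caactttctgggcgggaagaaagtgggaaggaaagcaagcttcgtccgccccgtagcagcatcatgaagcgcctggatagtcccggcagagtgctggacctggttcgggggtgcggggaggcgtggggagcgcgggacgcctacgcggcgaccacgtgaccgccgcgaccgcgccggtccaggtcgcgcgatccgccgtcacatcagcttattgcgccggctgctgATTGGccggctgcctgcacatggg
Insig1 (chr5:28071162-28071362, + strand): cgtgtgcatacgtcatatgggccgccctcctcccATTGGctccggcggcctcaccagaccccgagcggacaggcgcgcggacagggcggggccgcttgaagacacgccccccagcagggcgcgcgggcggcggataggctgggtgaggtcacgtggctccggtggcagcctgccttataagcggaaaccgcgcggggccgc
Insig2 (chr1:121332590-121332839, - strand): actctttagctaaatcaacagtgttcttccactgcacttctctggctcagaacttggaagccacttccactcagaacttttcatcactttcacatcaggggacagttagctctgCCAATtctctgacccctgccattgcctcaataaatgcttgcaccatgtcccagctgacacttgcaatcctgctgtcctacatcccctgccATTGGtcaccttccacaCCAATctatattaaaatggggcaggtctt
The element matched in *Hmgcs1* alone, 1 of 23 genes, against 1.22% of all 27025 genes with a window. CCAAT was found in 21 of 23, against 37.49% of all genes, and the GC box in 20 of 23, against 35.36%. The E-box was found in 5 of 23 (*Dhcr7*, *Hsd17b7*, *Insig1*, *Sc5d* and *Scap*), against 6.86%. *Msmo1* and *Insig2* each held 3 CCAAT boxes, *Insig2* all in the window shown, where the other Insig2 windows held 0. *Cyp51* and *Sc5d* each held 1, which for *Cyp51* lies in the part of the window inside the GENCODE gene. The windows of *Msmo1* and *Cyp51*, like that of *Insig1*, reach into the GENCODE gene, and these windows of *Msmo1* and *Cyp51* are not printed. No window was used for *Sqle*, *Fdft1*, *Fdps*, *Soat2*, *Npc1* and *Stard4*. A match is a stretch of letters and says nothing of occupancy.

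The libraries held 16944723 to 21044292 counts on genes, and 3 counts corresponded to 0.142 to 0.172 CPM (counts per 1000000 counted reads, TMM-scaled). *Mtdh* averaged 200 ± 10.5 CPM in C75S and 197 ± 5.18 in WT (mean ± SD, n = 3, as for all means below), and a gene count does not read the altered codon. Hepatocyte markers summed to 70621 to 83293 CPM in C75S and 78775 to 86995 CPM in WT, with overlap. *Alb* made up most of these sums, at 55642.6 to 66472.5 CPM in C75S and 63097.3 to 70066.6 in WT. Of the 8 hepatocyte markers, 3 had positive log2 values and 0 were called by edgeR. Of 8 Kupffer cell and macrophage markers, 6 were under 1 CPM in all 6 libraries, while *Cd68* stood at 94.9 to 138 CPM in C75S and 101 to 133 in WT and made up nearly all of the list's sum, 96.1 to 140 CPM in C75S and 102 to 134 in WT. The 6 cholangiocyte markers summed to 144 to 197 CPM in C75S and 122 to 133 CPM in WT. Most of this was *Spp1*, at 105 to 157 CPM in C75S and 83.9 to 96.5 in WT. Of 4 tested, 3 had positive log2 values. *Krt19* was called higher, *Sox9* had a log2 value of -0.06, and *Cftr* was at 0 throughout. *Epcam*, which was not tested, averaged 0.0515 ± 0.0536 CPM in C75S and 0.303 ± 0.232 in WT. The sums of endothelial markers (31.6 to 42.0 CPM in C75S, 29.7 to 40.8 in WT), mostly *Stab2*, overlapped between genotypes. Of the 5 endothelial markers tested, 4 had positive log2 values, the median was 0.69 and 0 were called by edgeR, DESeq2 or limma-voom, with 2 at an unadjusted edgeR p under 0.05. *Lyve1* averaged 2.47 ± 0.466 CPM in C75S and 1.36 ± 0.262 in WT, and *Pecam1* 3.19 ± 0.529 and 1.97 ± 0.745. *Kdr* averaged 0.906 ± 0.162 and 0.562 ± 0.130 CPM. These low genes each had no overlap, where 9.02% of all genes tested were higher in C75S without overlap. *Stab2*, the most abundant of the list, had a log2 value of -0.09. Stellate cell markers summed to 53.4 to 69.9 CPM against 68.8 to 91.2, with overlap, and 1 of 4 tested had a positive log2 value. Most of this sum was *Reln*, at 49.9 to 67.2 CPM in C75S and 65.8 to 88.1 in WT. The part of these other cells in the results below was not tested. In such bulk samples, fewer cells of a type and less RNA per cell cannot be told apart.

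In WT the genes spanned a wide range of levels. On the RPKM scale, which divides CPM by the length of a gene's exons in kilobases, *Insig2* was highest at 99.9 ± 0.723. *Hmgcs1*, the enzyme that condenses acetoacetyl-CoA with acetyl-CoA, followed at 71.0 ± 9.65. *Cyp51*, the lanosterol demethylase, stood at 46.2 ± 4.42 RPKM, *Ebp*, the sterol isomerase, at 36.3 ± 2.86, and *Sqle*, the squalene epoxidase, at 30.5 ± 2.07. The WT libraries of these 5 genes did not overlap between neighbours in the order. Further down the order they mostly did, with 16 of the 28 neighbouring pairs overlapping. *Insig1* was at 19.2 ± 1.67 RPKM, *Srebf2* at 15.1 ± 0.556 and *Scap* at 10.4 ± 0.511. The lowest of the detected genes were *Fdps* (2.52 ± 0.344), *Lbr* (2.33 ± 0.0370) and *Idi1* (0.457 ± 0.133). *Soat1*, a sterol acyltransferase, had 0, 0 and 3 counts in C75S and 2, 0 and 0 in WT, and it was the only one of the 29 left untested.

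Reads that fit several places were not counted, and some genes have near-identical copies. *Acat2* shares 97.7% identity with *Acat3* over 1477 bases, and *Fdps* 96.7% with the pseudogene *Gm5873* over 1066 bases. *Idi1* is identical to *Gm13502* over 684 bases, *Ggps1* matches *Gm5630* over 903 bases at 97.2%, and *Fdft1* matches *Gm6781* over 1249 bases at 97.4%. *Insig1* and *Soat2* have shorter matches of 189 and 173 bases. *Fdps* and *Gm43738* also share 1124 exon bases on 1 strand, *Tm7sf2* and *Vps51* 532, and *Lbr* and *Gm26004* 69. Levels of these genes are therefore uncertain, and the effect of the copies was not tested. Exon length also matters. With the longest coding transcript in place of all exons, an alternative chosen after seeing the data, *Msmo1* moved from the ninth place, at 20.8 RPKM, to the third, at 62.5. *Insig2* (128.6) and *Hmgcs1* (94.1) stayed first and second, but *Sqle*, at 61.3 RPKM, passed *Cyp51* (51.9) and *Ebp* (48.1). *Fdps*, at 7.67, left the 3 lowest detected genes, where *Ggps1* (3.62) joined *Lbr* (3.17) and *Idi1* (0.530). Of the 29 levels, 10 rose by over 1.5 times, so the order depends on the length used.

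**Figure D1:**
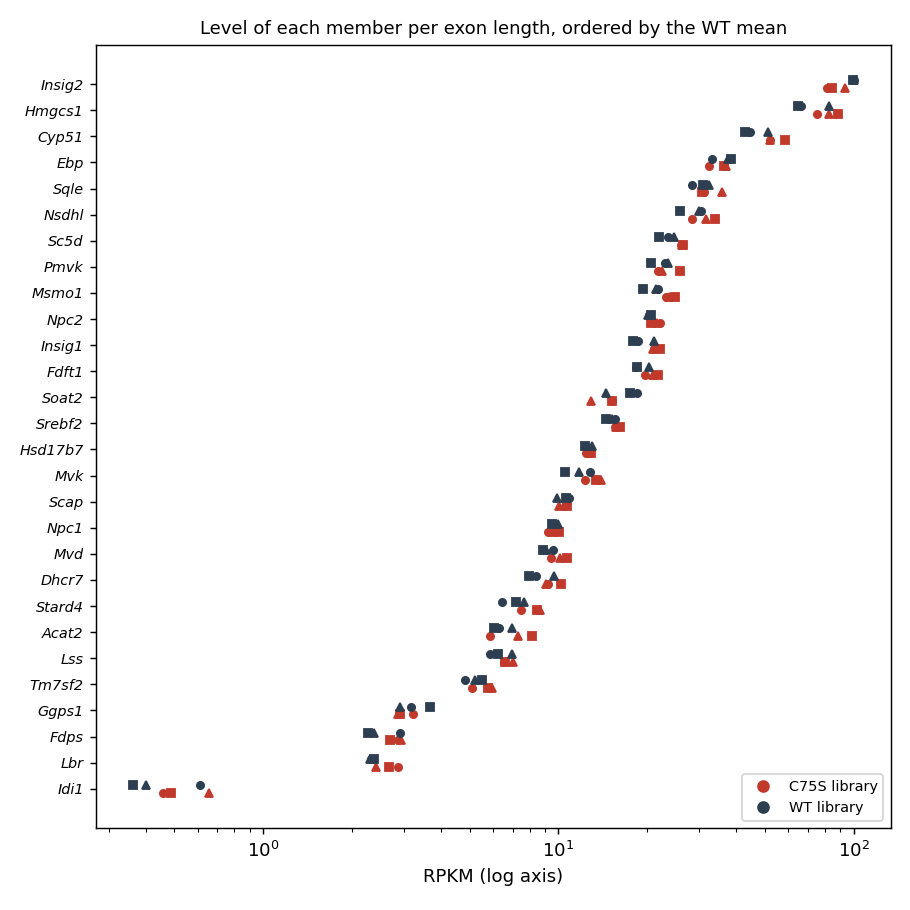
RPKM on a log axis for the 28 tested genes, ordered by the WT mean, with 1 point per library (circle, square and triangle for replicates 1, 2 and 3; red C75S, dark blue WT). *Insig2* heads the order at a WT mean of 99.9 and *Idi1* ends it at 0.457, and for most genes the red and blue points of a row overlap.

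Between genotypes most of these genes did not pass the test, and most of their values were higher in C75S. Of the 28 tested, 23 had a log2 fold change (C75S minus WT) above 0, where 49.1% of all 12741 genes tested did. Their median was 0.13, against -0.003 over all genes, and they ranged from -0.22 to 0.23. With edgeR's quasi-likelihood test and adjustment over all genes, 1 was called higher (*Msmo1*) and 1 lower (*Insig2*), or 7.14% of those tested, where 3.11% of all genes were called, 1.74% higher and 1.37% lower. At an unadjusted p under 0.05 there were 7 higher and 2 lower, where 6.91% and 6.51% of all genes passed. The genes were chosen with earlier results of these data known, so these counts are a description.

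**Figure D2:**
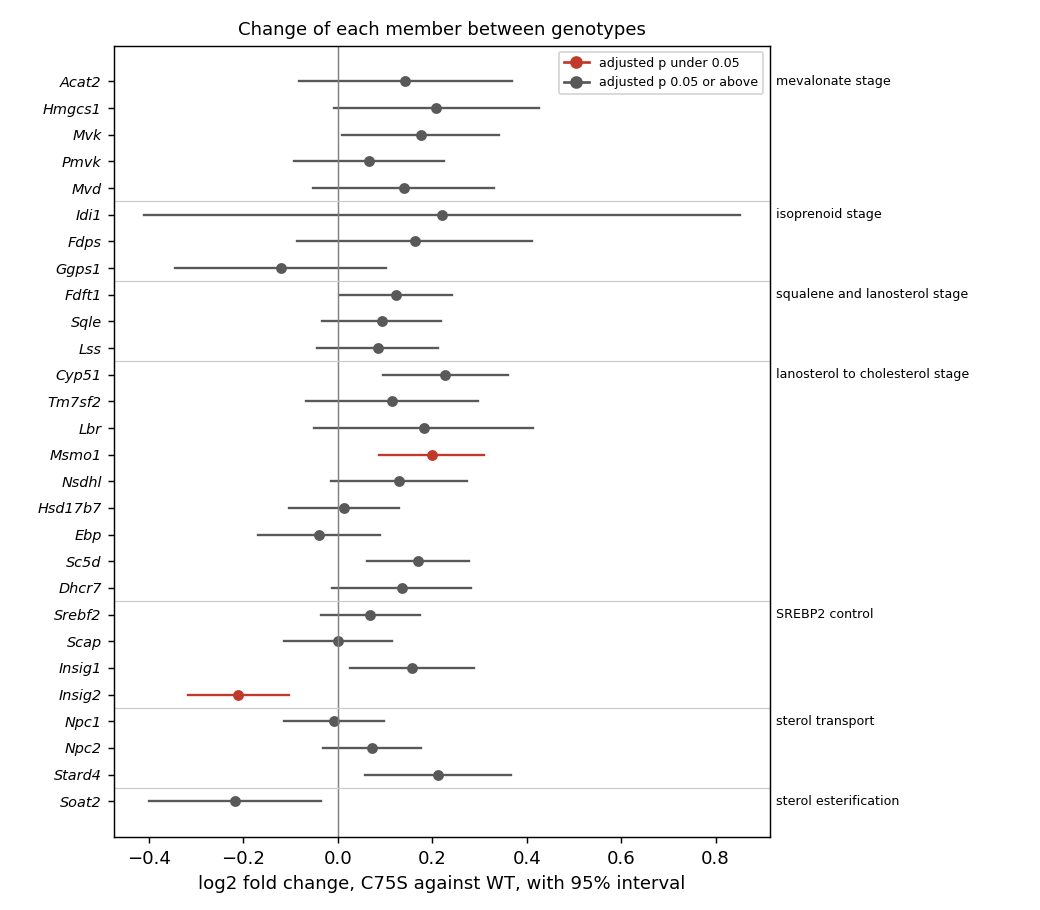
Log2 fold change of each of the 28 tested genes, C75S against WT, with its 95% interval from the edgeR fit, in pathway order (red, adjusted p under 0.05). Points lie between -0.22 (*Soat2*) and 0.23 (*Cyp51*), and the intervals of most genes cross 0, with *Idi1* the widest.

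The synthesis enzymes carried most of the upward values. Of 20 enzymes, 18 (90.0%) had a positive log2 fold change, where 49.1% of all genes tested did, and their median was 0.14. Of the 20, 1 was called (5.0%), where 3.11% of all genes were. At an unadjusted edgeR p under 0.05, 5 were higher, where 6.91% of all genes passed in that direction. The summed level of the enzymes was 1608, 1770 and 1717 CPM in C75S replicates 1, 2 and 3, and 1490, 1457 and 1654 CPM in WT replicates 1, 2 and 3. The groups overlapped, because WT replicate 3 lay above C75S replicate 1. The 8 tested genes that are not synthesis enzymes had a median of 0.03, with 5 positive and 1 called, lower in C75S (12.5%).

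The same library was often the lowest or the highest of its group. Relative to each gene's WT mean, the median log2 value over the 28 genes was 0.04 in C75S replicate 1, 0.17 in replicate 2 and 0.14 in replicate 3. In WT it was -0.01, -0.04 and 0.04. C75S replicate 1, the shallowest library, was the lowest of its group for 18 of 28 genes and replicate 2 the highest for 16. WT replicate 2 was the lowest of its group for 16 genes and WT replicate 3 the highest for 14. Values without a library are given below beside the results they change.

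**Figure D3:**
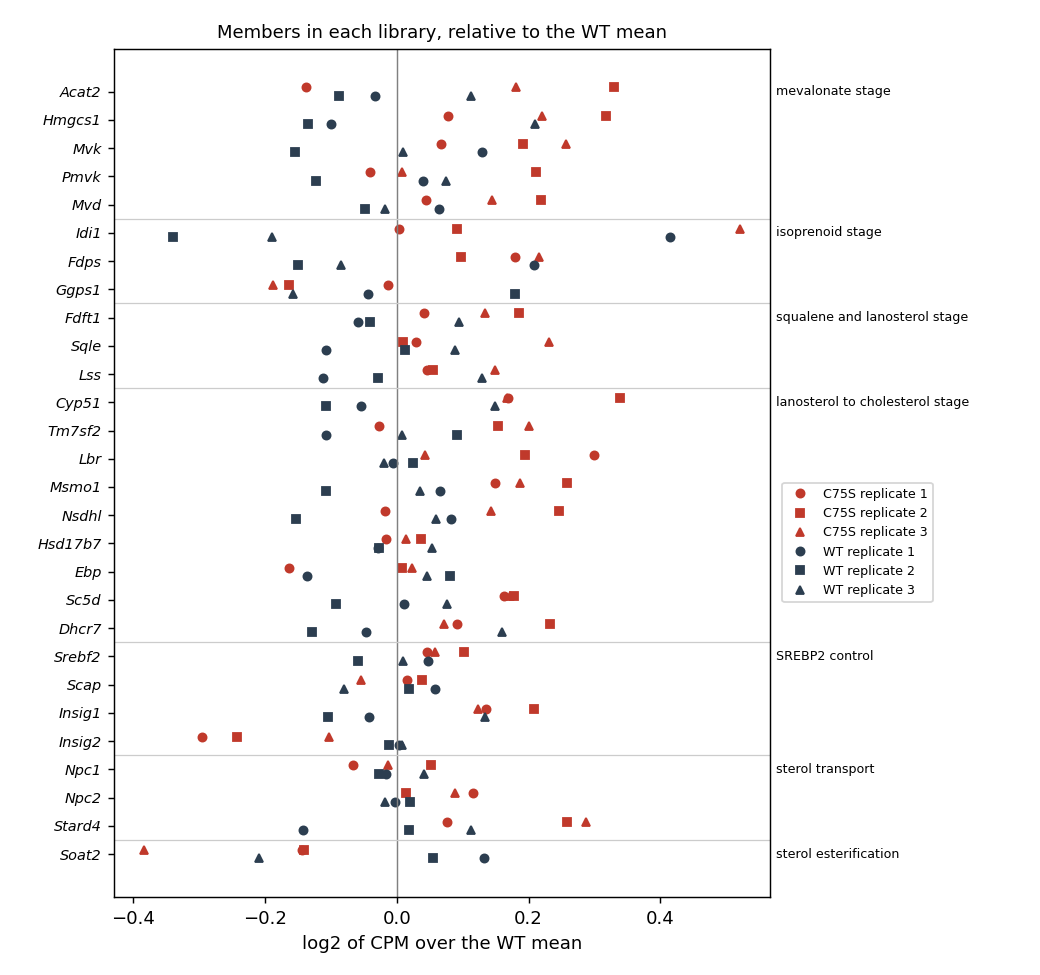
Log2 of each library's CPM over the WT mean, for the 28 tested genes in pathway order (red C75S, dark blue WT; circle, square and triangle for replicates 1, 2 and 3). Red squares, C75S replicate 2, lie furthest right for 16 genes within their group, and dark blue squares, WT replicate 2, furthest left for 16.

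The mevalonate stage makes isopentenyl diphosphate from acetyl-CoA. All 5 of its genes here had positive log2 fold changes, with a median of 0.14, and 0 were called by edgeR, DESeq2 or limma-voom, with 1 at an unadjusted edgeR p under 0.05. *Hmgcs1* (chromosome 13, 119690379 to 119708260, GRCm38) was at 344, 406 and 380 CPM in C75S and 304, 297 and 377 in WT. WT replicate 3 stood among the C75S libraries, and the means were 377 ± 31.3 and 326 ± 44.3 CPM. Its log2 fold change was 0.21 (SE 0.10), with an edgeR adjusted p of 0.398. Without WT replicate 3 it was 0.33, with an adjusted p of 0.00449, and with no filter on low counts the adjusted p was 0.00624.

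*Mvk*, mevalonate kinase, was at 32.8, 35.7 and 37.4 CPM in C75S and 34.2, 28.1 and 31.5 in WT. WT replicate 1 lay above C75S replicate 1, so the groups overlapped. The log2 fold change came to 0.18 (SE 0.08), with an unadjusted edgeR p of 0.0399 and an adjusted p of 0.333. The 3 others of this stage did not pass either threshold. *Acat2*, the acetoacetyl-CoA thiolase, averaged 18.1 ± 2.89 CPM in C75S and 16.4 ± 1.20 in WT. *Mvd*, the mevalonate diphosphate decarboxylase, averaged 18.7 ± 1.13 and 17.0 ± 0.688 CPM, a log2 difference of 0.14. *Pmvk*, phosphomevalonate kinase, averaged 40.0 ± 3.78 and 38.3 ± 2.73 CPM, a log2 difference of 0.07.

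The isoprenoid stage joins these units into farnesyl and geranylgeranyl diphosphate, which also feed protein prenylation. None of its 3 genes was called by edgeR, DESeq2 or limma-voom, and their unadjusted edgeR p-values were 0.478 for *Idi1*, 0.189 for *Fdps* and 0.272 for *Ggps1*. *Idi1*, the isomerase, was too sparse to measure well, at 1.87 ± 0.374 CPM in C75S and 1.60 ± 0.467 in WT, with a log2 fold change of 0.22 and an SE of 0.31. With unstranded counts its log2 value was -0.06. *Fdps*, the farnesyl diphosphate synthase, was at 12.0, 11.3 and 12.3 CPM in C75S and 12.2, 9.55 and 9.99 in WT. *Ggps1*, the geranylgeranyl diphosphate synthase, was 1 of the 2 enzymes with a negative value, -0.12 on the log2 scale, at 14.1 ± 0.943 CPM against 15.4 ± 1.85.

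The squalene and lanosterol stage commits the pathway to sterols. All 3 of its genes had small positive values, with a median of 0.09, and 0 were called by edgeR, DESeq2 or limma-voom, with 1 at an unadjusted edgeR p under 0.05. *Fdft1*, squalene synthase, was at 82.9, 91.5 and 88.3 CPM in C75S and 77.3, 78.3 and 85.9 in WT. WT replicate 3 again lay above C75S replicate 1. On the log2 scale the difference was 0.12 (SE 0.06), with an unadjusted edgeR p of 0.0437 and an adjusted p of 0.347. *Sqle* averaged 181 ± 15.7 CPM in C75S and 169 ± 11.5 in WT, with an adjusted p of 0.549. *Lss*, lanosterol synthase, averaged 72.6 ± 2.90 and 68.5 ± 5.90 CPM, with an adjusted p of 0.617.

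The stage from lanosterol to cholesterol held the called enzyme and all 4 enzymes whose libraries did not overlap between genotypes, *Cyp51*, *Msmo1*, *Sc5d* and *Lbr*. Among all genes tested, 9.02% were higher in C75S without overlap. Of the 9 genes of this stage, 8 had positive values, with a median of 0.13.

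*Msmo1* (ENSMUSG00000031604, chromosome 8, 64718139 to 64733792), which oxidises the methyl groups at carbon C-4 of the sterol, rose in C75S. It was at 142, 153 and 146 CPM in C75S and 134, 119 and 131 in WT, and the lowest C75S library lay above the highest WT library. This was a log2 fold change of 0.20 (SE 0.05, 95% interval 0.09 to 0.31), with an edgeR adjusted p of 0.0404. The call was lost with DESeq2 (adjusted p = 0.0526) and, in edgeR, when C75S replicate 2 (0.197), WT replicate 2 (0.285), C75S replicate 3 (0.0884) and WT replicate 3 (0.0661) were left out in turn.

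*Cyp51* (chromosome 5, 4081145 to 4104746), which removes the methyl group at carbon C-14 of lanosterol, was at 229, 258 and 229 CPM in C75S and 196, 189 and 226 in WT. The groups did not overlap, but WT replicate 3 came close to the lower C75S libraries. On the log2 scale C75S lay higher by 0.23 (SE 0.06), the largest of the 28, with an edgeR adjusted p of 0.0566. It passed the threshold with library-size scaling (0.0282), with no filter (0.00135), with DESeq2 (0.0431) and without WT replicate 3 (0.00397), and the adjusted p was as high as 0.269 without WT replicate 2.

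*Sc5d* (chromosome 9, 42251595 to 42264256), the lathosterol desaturase, was at 127, 128 and 128 CPM in C75S and 114, 106 and 119 in WT. The C75S libraries were tightly grouped above all 3 WT libraries. The log2 fold change was 0.17 (SE 0.05), with an unadjusted edgeR p of 0.00328 and an adjusted p of 0.0841. *Lbr*, whose product is both a sterol reductase and a nuclear membrane protein, was at 13.7, 12.7 and 11.4 CPM in C75S and 11.1, 11.3 and 11.0 in WT. Its adjusted p was 0.524.

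The other 5 genes of this stage did not pass either threshold. *Dhcr7*, which makes cholesterol from 7-dehydrocholesterol, averaged 55.3 ± 3.44 CPM in C75S and 50.4 ± 5.30 in WT, a log2 difference of 0.13. *Nsdhl*, the sterol decarboxylase, averaged 89.3 ± 8.11 and 81.7 ± 7.15 CPM, also a log2 difference of 0.13. *Tm7sf2*, the other sterol reductase beside *Lbr*, averaged 24.7 ± 2.01 and 22.8 ± 1.58 CPM. *Hsd17b7*, the ketoreductase, and *Ebp* were nearest to 0, at log2 values of 0.01 and -0.04, and each changed sign when certain libraries were left out.

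**Figure D4:**
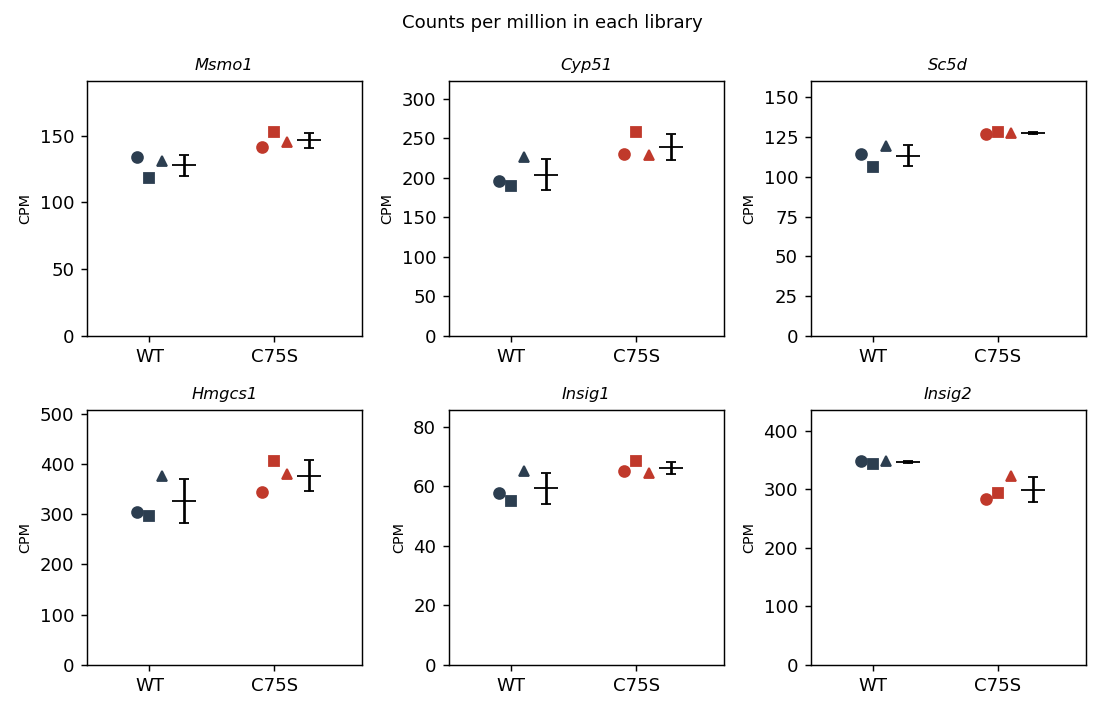
CPM of *Msmo1*, *Cyp51*, *Sc5d*, *Hmgcs1*, *Insig1* and *Insig2* in each library, with the mean and SD beside the points (circle, square and triangle for replicates 1, 2 and 3; axes start at 0). The C75S libraries lie above all WT libraries for *Msmo1*, *Cyp51* and *Sc5d* and below them for *Insig2*, while WT replicate 3 reaches the C75S range for *Hmgcs1* and *Insig1*.

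The 4 genes of SREBP2 and its sterol sensor did not move as 1 block. *Srebf2* (chromosome 15, 82147181 to 82205379), which encodes SREBP2, was at 112, 116 and 113 CPM in C75S and 112, 104 and 109 in WT. The groups overlapped, and the log2 fold change was 0.07 (95% interval -0.04 to 0.17), with an edgeR adjusted p of 0.618. *Scap* (chromosome 9, 110333288 to 110384950), the sterol-sensing escort, was at 78.6, 79.8 and 74.8 CPM in C75S and 80.9, 78.8 and 73.5 in WT. Its log2 fold change was 0.0003 (95% interval -0.12 to 0.12), with an adjusted p of 0.999. RNA counts do not show how much SREBP2 was cut or in the nucleus.

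*Insig2* (ENSMUSG00000003721, chromosome 1, 121304353 to 121332589), one of the anchors, fell in C75S. It was at 283, 293 and 323 CPM in C75S and 348, 344 and 349 in WT. All 3 C75S libraries lay below the WT libraries, which were within a few CPM of each other. Among all genes tested, 8.96% were lower in C75S without overlap. The fitted log2 difference was -0.21 (SE 0.05, 95% interval -0.32 to -0.10), with an edgeR adjusted p of 0.0220. The call was kept in each of 9 other settings that used all 6 libraries, and without C75S replicate 3 (0.00598). It was lost when any of the others was left out, namely replicate 1 (0.124) or 2 (0.0951) of C75S and replicate 1 (0.0545), 2 (0.0921) or 3 (0.0713) of WT.

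*Insig1* (chromosome 5, 28071363 to 28078662), the other anchor and itself a target of SREBP2, was at 65.1, 68.5 and 64.6 CPM in C75S and 57.6, 55.2 and 65.1 in WT. WT replicate 3 lay within the C75S range. The log2 value, C75S minus WT, was 0.16 (SE 0.06), with an unadjusted edgeR p of 0.0207 and an adjusted p of 0.238. On the RPKM scale, *Insig2* over *Insig1* was 3.87, 3.81 and 4.46 in C75S and 5.38, 5.55 and 4.78 in WT. The ratio was lower in all 3 C75S libraries. It is a description, since it was formed after both values had been seen.

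Among the genes that move sterol, *Stard4*, a cytosolic sterol carrier and SREBP2 target, was at 41.8, 47.4 and 48.4 CPM in C75S and 35.9, 40.2 and 42.8 in WT. WT replicate 3 lay above C75S replicate 1. The log2 fold change stood at 0.21 (SE 0.07), with an unadjusted edgeR p of 0.00912 and an adjusted p of 0.151. *Npc1* and *Npc2*, which export cholesterol from lysosomes, showed log2 values of -0.01 and 0.07. *Npc1* averaged 109 ± 4.47 CPM in C75S and 109 ± 2.79 in WT, and *Npc2* 116 ± 4.19 and 111 ± 1.47 CPM.

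*Soat2* (chromosome 15, 102150526 to 102163469), the acyltransferase that makes cholesteryl esters in hepatocytes, was at 33.6, 33.7 and 28.5 CPM in C75S and 40.7, 38.5 and 32.1 in WT. WT replicate 3 lay among the C75S libraries. The log2 difference was -0.22 (SE 0.09), the lowest of the 28, with an unadjusted edgeR p of 0.0207 and an adjusted p of 0.238.

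**Figure D5:**
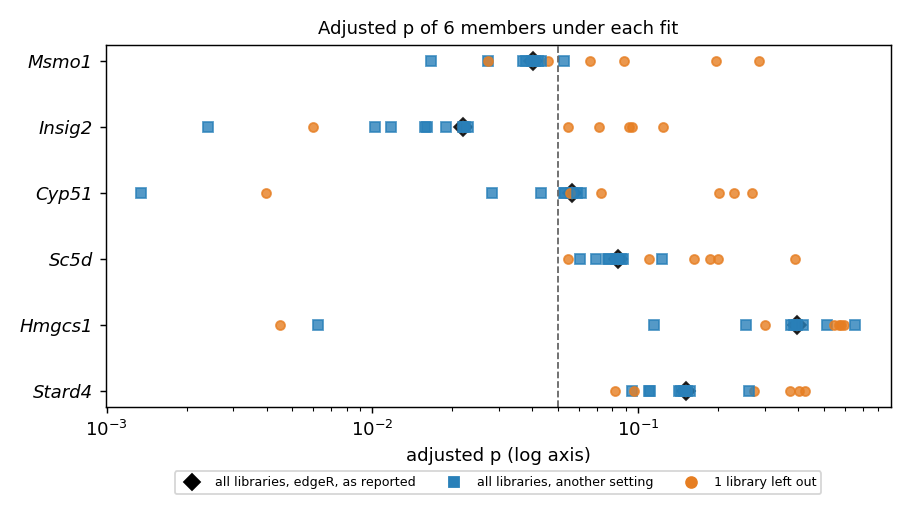
Adjusted p (log axis, dashed line at 0.05) of 6 genes in the reported edgeR fit (diamonds), in 9 other settings on all 6 libraries (squares) and with 1 library left out (circles). *Insig2* lies left of the line in all full-library settings and *Msmo1* in all but DESeq2, while most circles of both lie right of it.

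The same fit gave the rest of the pathway. Of 57 further genes listed for it, 52 were tested, 32 (61.5%) had positive values, where 49.1% of all genes tested did, and the median was 0.02. None was called higher and 1 was called lower by edgeR, DESeq2 and limma-voom alike, or 1.92% of those tested, below the 3.11% called over all genes. At an unadjusted edgeR p under 0.05 there were 5 higher and 4 lower, where 6.91% and 6.51% of all genes passed. Without overlap between the genotypes there were 4 higher and 4 lower, where 9.02% and 8.96% of all genes tested were. *Scp2*, which encodes a peroxisomal thiolase and a sterol carrier protein, was at 330, 380 and 376 CPM in C75S and 402, 415 and 461 in WT, with no overlap. It fell by 0.23 on the log2 scale (SE 0.06), with an edgeR adjusted p of 0.0282, and it was called in 3 of the 6 fits with 1 library left out. The call was lost without C75S replicate 1 (0.155), WT replicate 2 (0.0845) or WT replicate 3 (0.183).

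In the remaining 4 lists the gene with the smallest p is given, and 0 members were called by edgeR, DESeq2 or limma-voom in each. Of 11 genes of SREBP processing and sterol-regulated degradation, 5 had positive values. The 1 at an unadjusted edgeR p under 0.05 had a negative log2 value, -0.12. That gene, *Rnf139*, which encodes a sterol-sensing ubiquitin ligase, was at 57.8, 59.3 and 58.7 CPM in C75S and 62.3, 64.0 and 64.5 in WT (edgeR adjusted p = 0.359). Of 8 tested genes of sterol efflux and oxysterol sensing, 6 had positive values, with 2 at an unadjusted p under 0.05. *Abca1*, the cholesterol exporter, averaged 124 ± 5.98 and 111 ± 11.1 CPM (adjusted p = 0.191, and 0.0247 without WT replicate 3). Of 13 genes that use isoprenoids for purposes other than sterols, 10 had positive values and 0 had an unadjusted p under 0.05. *Nus1*, a subunit of the dolichol-making enzyme, averaged 114 ± 2.35 and 106 ± 6.22 CPM (adjusted p = 0.472). Of 8 tested other enzymes and SREBP2 targets, 5 had positive values. At an unadjusted edgeR p under 0.05 there were 2 higher and 1 lower. *Tmem97*, a sterol-responsive membrane protein gene, averaged 36.2 ± 1.73 and 31.8 ± 2.59 CPM (adjusted p = 0.238).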

How the data were processed

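The authors deposited raw read counts per Ensembl gene, in 3 columns (unstranded, forward strand, reverse strand), per the file layout. Trim Galore 0.6.6, STAR 2.7.9a, edgeR 3.36.0, mm10 and GRCm38 are named in the submitters' processing notes, and the annotation release is not given in the sources used here. The reverse-strand counts, by far the larger strand column, were used. Multimapping reads, 17.98% to 18.54% of each file, were not counted to genes by the authors, and the 4 summary rows were left out. Of 55487 gene rows, 55141 had a symbol in GENCODE M21 (GRCm38), which gave positions and exon lengths.

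Genes were filtered with filterByExpr (minimum count 10, minimum total 15). With TMM scaling, the quasi-likelihood F-test of edgeR 4.0.16 under R 4.3.3 (two-sided, robust, genotype alone in the design) was run. P-values were adjusted by Benjamini-Hochberg over 12741 genes, with a threshold of 0.05 for a call. The SE is the size of the change over the root of F, and the biological coefficient of variation was 5.97%. Intervals cover the spread between libraries. The procedure was tested on simulated data. Near-identical copies (at least 95% identity over 150 bases) were sought with BLAST 2.17.0.

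The genes, the lists and the tests were chosen with earlier results of these data known. Values per library are given for genes with an adjusted or unadjusted p under 0.05 and for *Srebf2*, *Scap*, *Insig1* and *Insig2*. *Hmgcs1*, *Fdps*, *Lbr* and *Soat1* were added after their values were seen. From each further list, called genes or else the one with the smallest p are named. Lists not among the 29 genes were SREBP processing and degradation, sterol efflux and oxysterol sensing, isoprenoid use, other enzymes and SREBP2 targets, sterol movement, and markers of hepatocytes, Kupffer cells, endothelial cells, stellate cells and cholangiocytes. Alternatives were DESeq2 1.42.0, limma-voom (limma 3.58.1), scaling by RLE, upper quartile or library size, no filter, a minimum count of 50, unstranded counts, a replicate block and leaving out each library.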

Additional observations from a re-analysis of the deposited data

How the results depend on the processing

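Over the 9 other settings on all 6 libraries, 379 to 573 genes were called, and leaving out 1 library gave 201 (without WT replicate 2) to 355, with 253 without C75S replicate 1 and 246 without WT replicate 3. With no filter the split was 290 higher and 283 lower, against 222 and 174. The genes of the pathway called were 4 with no filter (adding *Hmgcs1* and *Cyp51*) and ranged from 0 (without C75S replicate 2 or WT replicate 2) to 2 with 1 library left out. Further pathway genes called were 2 with library-size scaling, 2 with no filter, and 0 to 2 with 1 library left out. The median log2 fold change of the tested genes stayed positive in all 15 alternatives, from 0.11 (unstranded) to 0.14 on all libraries and from 0.09 (without WT replicate 2) to 0.16 (without C75S replicate 1) with 1 left out.

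Values near 0 changed sign. *Scap* was at -0.0030 with no filter, -8.9e-06 with the stricter filter and -0.0055 unstranded, *Npc1* at 0.0038 with library-size scaling and 0.00086 unstranded, and *Idi1* at -0.062 unstranded. With 1 library left out, *Scap* ranged from -0.038 to 0.032, *Npc1* from -0.039 to 0.020, *Ebp* from -0.10 to 0.016, *Pmvk* from -0.015 to 0.11 and *Hsd17b7* from -0.0014 to 0.040. The cause was not tested. *Idi1* gave no value under the stricter filter, which removes it.

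With the replicate block, 480 genes and 2 of the pathway were called, and it changed no call among the 29 genes. Deviations of same-numbered libraries correlated at 0.02, -0.04 and 0.03. With so few libraries per group this cannot show whether they share a preparation, and the labels do not say.

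At the depth of these libraries, 3 counts were 0.142 to 0.172 CPM. *Soat1* had at most 3 counts in any library and was left untested. *Idi1*, which also has near-identical copies, was imprecise, with an SE of 0.31. The part of depth in this was not tested.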

Other observations

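*Tspo*, a sterol-binding protein of the outer mitochondrial membrane, was listed among the genes of sterol movement and is named here after its values were seen. It averaged 86.3 ± 3.91 CPM in C75S and 75.7 ± 3.11 in WT, with no overlap and an edgeR adjusted p of 0.0638, which was 0.0486 with library-size scaling. Of all genes tested, 9.02% were higher in C75S without overlap.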
